A study of Homo sapiens with 27 samples.

Results

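The genes on 22q11 around the long non-coding RNA (lncRNA) lnc-RTN4R-1 were followed after that lncRNA was lowered with antisense oligonucleotides. The members were all genes whose annotated start and end lay within 1 Mb of LINC02891, the gene symbol of lnc-RTN4R-1, with at least 10 counts in at least 3 samples. This gave 39 members of 60619 genes in the count tables, of which 16202 met the same count minimum. The members were 29 protein-coding genes, 8 lncRNAs including the target and 2 transcribed pseudogenes. A further 55 genes of the window lay under the count minimum. LINC02891 (ENSG00000249923) lay on the minus strand at chr22:20198729-20204918 (GRCh38). Of its 38 neighbours, 21 lay at lower and 17 at higher coordinates.

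RNA sequencing was performed on REH, an established human cell line of B-cell precursor acute lymphoblastic leukemia that carries the ETV6/RUNX1 fusion. Cells took up LNA GapmeRs from the medium at 10 µM and were collected after 72 h. GapmeRs are antisense DNA oligonucleotides flanked by locked nucleic acids, and RNase H cuts the RNA that they pair with. The 6 lnc-RTN4R-1 samples were 3 of GapmeR1 and 3 of GapmeR2. The 5 controls were 2 samples in medium alone and 3 with a non-targeting GapmeR (NTC). The other 16 samples had received a GapmeR against lnc-TIMM21-5 (3 GapmeR1, 3 GapmeR2), lnc-NKX2-3-1 (2 GapmeR1, 3 GapmeR2) or lnc-ASTN1-1 (3 GapmeR1, 2 GapmeR2). Every sample was REH, so the groups describe 1 line.

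Some lncRNAs act on genes close to where they are transcribed, through the transcript itself or through the act of transcription, and others act elsewhere in the cell or have no known role. RNase H cleavage lowers the transcript and leaves the DNA of the locus intact. The region holds genes that are lost together in 22q11.2 deletion syndrome, among them TBX1, a transcription factor of heart and pharyngeal development, DGCR8, a partner of Drosha in microRNA processing, and CRKL, a signalling adaptor.

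Both oligonucleotides matched an exon of LINC02891 in full, and each had a single full match on chromosome 22. The site of GapmeR1 lay in exon 3 of 4 at chr22:20200478-20200493 and that of GapmeR2 in exon 4 at chr22:20198858-20198873. The oligonucleotides are shown with the target RNA, written as DNA letters from the minus strand with 20 bases on each side of the site, because they define what was lowered. Capitals mark the bases that pair with the GapmeR. The sequence of NTC had no full match on chromosome 22.
lnc-RTN4R-1 GapmeR1: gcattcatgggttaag
Target of GapmeR1: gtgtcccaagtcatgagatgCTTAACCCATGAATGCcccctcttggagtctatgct
lnc-RTN4R-1 GapmeR2: tgctgagacatctagg
Target of GapmeR2: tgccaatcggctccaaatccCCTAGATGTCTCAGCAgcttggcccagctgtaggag
NTC: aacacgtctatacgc

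Sites with at most 2 mismatches were searched on the transcribed strand of every member, introns included. Apart from the target, GapmeR1 had 1 such site, in an intron of DGCR8 at chr22:20091738-20091753 on the plus strand, and GapmeR2 had 0. Among the other oligonucleotides, NTC and lnc-NKX2-3-1 GapmeR2 had 1 each, in MED15, and lnc-TIMM21-5 GapmeR2 had 2, in C22orf39 and HIRA. In the DGCR8 site below, capitals mark the bases shared with the GapmeR1 target.
DGCR8 site: tTTAtCCCATGAATGC

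The stranded counts summed to between 14627110 and 22750945 per sample, and levels are given as CPM, counts scaled to a library total of 1000000. Of 12 B-cell precursor markers, 11 reached at least 1 CPM in every sample, and VPREB1 was at 0 in every sample. All 5 T-cell markers and all 3 erythroid markers stayed under 1 CPM, with CD3D and HBB at 0 throughout. The summed level of 4 myeloid markers ran from 86.1 to 133 CPM in controls and from 83.3 to 450 CPM with lnc-RTN4R-1 GapmeRs. MPO made up nearly all of it, at 292 to 447 CPM with GapmeR2 and 80.2 to 116 CPM with GapmeR1. In medium MPO stood at 84.8 to 95.2 CPM and with NTC at 91.1 to 131 CPM. LYZ and CD14 stayed under 1 CPM, and CSF1R ran from 0.339 to 2.60 CPM over all samples. The part of the MPO shift in the GapmeR2 results was not tested.

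The target was read first. LINC02891 stood at 19.1 and 24.4 CPM in medium and at 18.3, 22.4 and 19.7 CPM with NTC. It stood at 6.00, 6.50 and 5.01 CPM with GapmeR1 and at 5.06, 5.65 and 3.41 CPM with GapmeR2. All 6 treated samples lay under all 5 controls and under the 16 samples with other GapmeRs, of which the lowest was 14.0, the median 19.4 and the highest 23.0 CPM.

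The lnc-RTN4R-1 GapmeRs left LINC02891 at 25.4% of controls, a log2 fold change of -1.98 ± 0.13 (SE; adjusted p = 1.57e-06, edgeR quasi-likelihood test with Benjamini-Hochberg adjustment). Against the other GapmeRs it was at 27.5%, a log2 fold change of -1.86 ± 0.11 (edgeR adjusted p = 6.75e-12). By replicate number, the difference of log2 CPM from controls was -1.74, -1.93 and -2.22 for LINC02891. GapmeR1 alone gave a LINC02891 log2 fold change of -1.83 ± 0.13 and GapmeR2 alone -2.15 ± 0.16. The level with GapmeR1 was higher than with GapmeR2 by a log2 fold change of 0.32 (95% interval -0.12 to 0.77, edgeR adjusted p = 0.396), which did not pass the threshold. In bulk RNA, fewer cells with the transcript and less transcript per cell cannot be told apart.

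**Figure D1:**
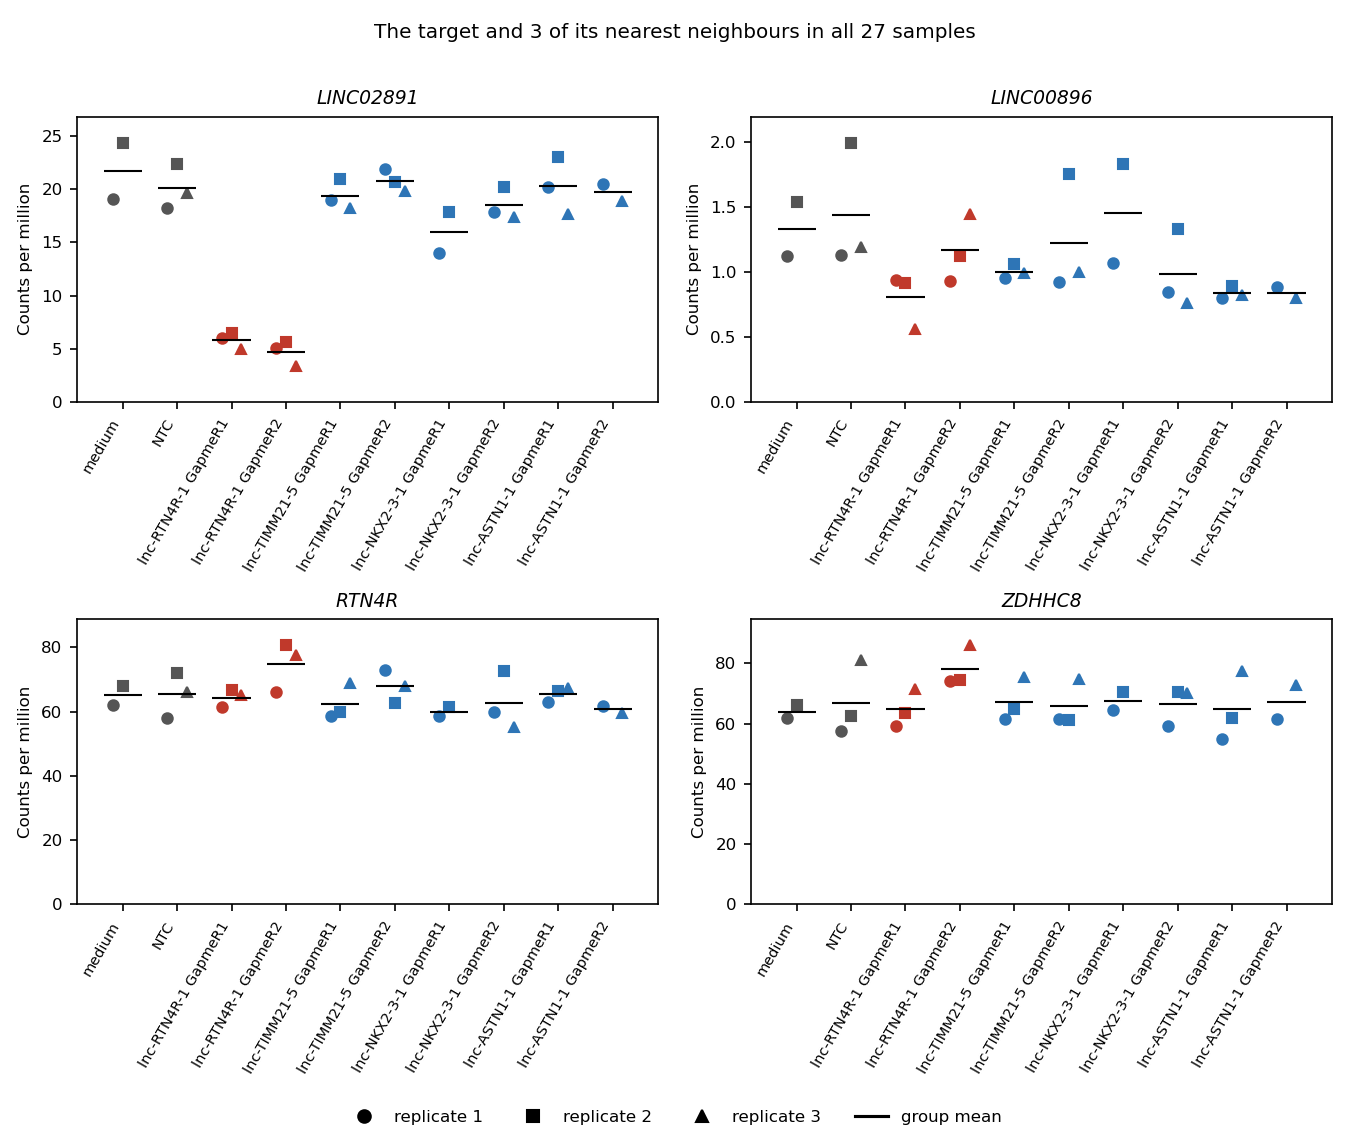
CPM (vertical axis, from 0) of LINC02891, LINC00896, RTN4R and ZDHHC8 in the 27 samples by group; symbols are replicate numbers, lines group means, grey controls, red lnc-RTN4R-1 GapmeRs and blue GapmeRs against other lncRNAs. The 6 lnc-RTN4R-1 samples of LINC02891 sit between 3.41 and 6.50 CPM under every other sample, whereas the 3 neighbours overlap between the sets.

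The first comparison asked whether genes near the target moved with it. Against controls, 1 of 37 members tested was changed at an adjusted p under 0.05, the target itself, beside 0.476% of all 14911 genes tested. No neighbour passed. Of 36 neighbours tested, 2 had an unadjusted p under 0.05, LINC00896 and SCARF2, beside 10.6% of all genes tested. DESeq2 also called only the target among members, beside 253 of all 14911 genes. The median log2 fold change of the members was -0.0024, beside 0.0050 over all genes tested, with 18 members above and 19 below 0. LINC02891 was also the only member whose samples did not overlap between both sets, beside 1.96% of all genes tested.

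In the comparison with controls the 95% interval of the log2 fold change held 0 for 34 of 36 neighbours. It lay within 1.25-fold in both directions for 25 of 28 protein-coding neighbours and within 1.5-fold for 27 of 28, with SCARF2 outside. Among noncoding neighbours the intervals were wider, since the 9 of them had between 1 and 89 counts per sample. Intervals of UFD1-AS1, ENSG00000273300, ENSG00000273212, LINC00896, ENSG00000273343 and USP41 reached past 1.5-fold. These bounds hold for both oligonucleotides pooled. With GapmeR1 alone 20 of 28 protein-coding neighbours lay within 1.25-fold and 26 within 1.5-fold. With GapmeR2 alone it was 17 and 26 of 28.

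Against the 16 samples with other GapmeRs, 1 of 38 members was changed, again LINC02891, beside 0.286% of all genes tested. With an unadjusted p under 0.05 there were 4 members, LINC02891, TRMT2A, RTN4R and LZTR1, beside 10.0% of all genes tested. The median log2 fold change of the members was -0.0012, beside 0.0028 over all genes. LINC02891 alone among members had no overlap between both sets, beside 0.137% of all genes. Without lnc-NKX2-3-1 GapmeR1, whose libraries stood apart in several members as described later, the call was the same 1 member, beside 1.01% of all genes, and LINC02891 was at -1.90 ± 0.09. The other GapmeRs against the same controls changed 0 of 38 members in edgeR, beside 0.0129% of all genes tested, and 0 in DESeq2, beside 7 of 15474. In edgeR 1 member, LINC00896, had an unadjusted p under 0.05, beside 4.95% of all genes. With the block described later the count of members changed was also 0, beside 0.0517%, and without lnc-NKX2-3-1 GapmeR1 it was 0, beside 0.0519%. These comparisons share samples with the first.

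**Figure D2:**
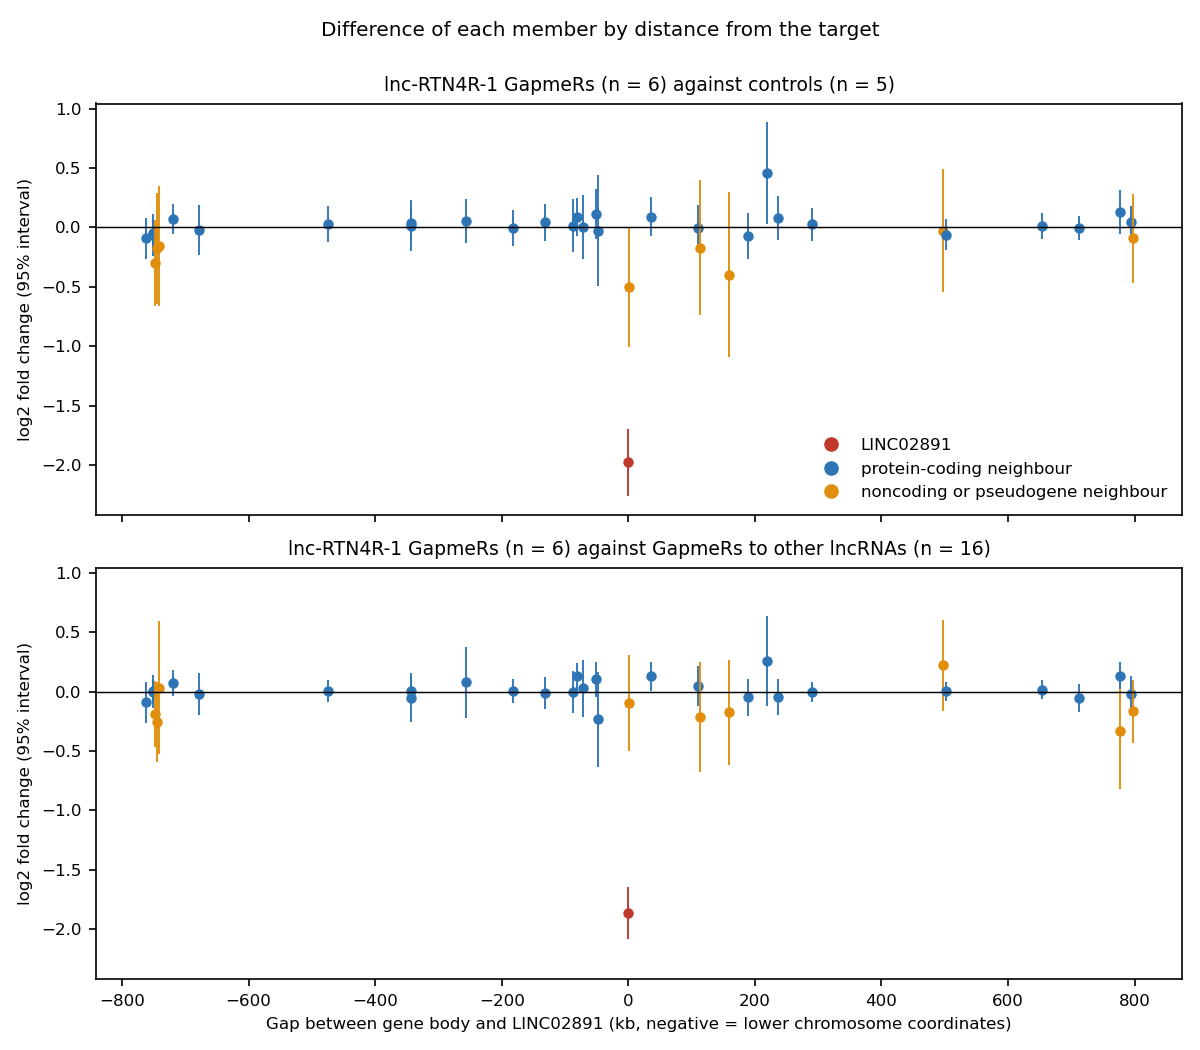
Log2 fold change with its 95% interval (vertical axis) of the members shown against the gap in kb between its gene body and LINC02891 (horizontal axis, negative toward lower coordinates), for lnc-RTN4R-1 GapmeRs against controls (top) and against other GapmeRs (bottom). The target lies at -1.98 and -1.86, and the neighbours scatter around 0 at all distances, with wide intervals for noncoding genes.

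By distance from the target, 7 neighbours lay within 100 kb, 16 between 100 and 500 kb and 15 beyond 500 kb. The median log2 fold change against controls was 0.015, 0.016 and -0.054 in these bins, and 0 members were called in each. Against other GapmeRs it was 0.026, 0.0023 and -0.018, and again 0 were called. For the protein-coding neighbours within 100 kb the log2 fold change ran from -0.029 to 0.11 against controls.

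The nearest neighbour was LINC00896, an lncRNA on the plus strand that begins 1.46 kb from LINC02891. Controls had 1.12 and 1.53 CPM in medium and 1.13, 1.99 and 1.19 CPM with NTC. GapmeR1 samples had 0.938, 0.915 and 0.562 CPM and GapmeR2 samples 0.931, 1.12 and 1.44 CPM. All 3 GapmeR1 samples lay under the lowest control, and GapmeR2 samples overlapped the controls. The median of the 16 samples with other GapmeRs, 0.937 CPM, also lay under the lowest control, and their highest was 1.83 CPM. LINC00896 had only 11 to 37 counts per sample.

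The LINC00896 log2 fold change was -0.50 ± 0.24 against controls (95% interval -1.01 to -0.00065, edgeR adjusted p = 0.473). It was -0.41 ± 0.20 for the other GapmeRs against the same controls (edgeR adjusted p = 0.989) and -0.097 ± 0.20 for lnc-RTN4R-1 GapmeRs against other GapmeRs (edgeR adjusted p = 0.927). By replicate number, LINC00896 differed from controls by -0.24, -0.73 and -0.34 on the log2 scale. The shift from controls passed the test with neither set of GapmeRs. GapmeR1 alone gave -0.78 ± 0.28 (95% interval -1.38 to -0.17, edgeR adjusted p = 0.316) and GapmeR2 alone -0.26 ± 0.27 (edgeR adjusted p = 0.652). With the block described later, GapmeR1 gave -0.73 (edgeR adjusted p = 0.0733) and GapmeR2 -0.27 (edgeR adjusted p = 0.493). GapmeR1 against GapmeR2 was at -0.51 ± 0.31 (edgeR adjusted p = 0.383).

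RTN4R, which encodes the Nogo receptor and gave the lncRNA its name, lay 36.5 kb away. It stood at 62.1 and 68.0 CPM in medium and at 58.1, 71.9 and 66.0 CPM with NTC. With GapmeR1 it stood at 61.3, 66.6 and 65.3 CPM and with GapmeR2 at 66.3, 80.7 and 77.7 CPM. The sets overlapped, and 2 of 3 GapmeR2 samples exceeded the highest control. The RTN4R log2 fold change was 0.088 ± 0.077 against controls (95% interval -0.076 to 0.25, edgeR adjusted p = 0.767). Against other GapmeRs it was 0.13 ± 0.059 (95% interval 0.0091 to 0.25, edgeR adjusted p = 0.461).

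On the other side of the target, CCDC188 at 47.7 kb had 13 to 44 counts per sample and a log2 fold change of -0.029 ± 0.22 against controls. ZDHHC8, a palmitoyltransferase gene at 50.7 kb, stood at 61.9 and 66.0 CPM in medium and at 57.4, 62.5 and 81.1 CPM with NTC. Its levels were 59.3, 63.4 and 71.4 CPM with GapmeR1 and 74.1, 74.4 and 86.0 CPM with GapmeR2, so that the GapmeR2 samples overlapped the controls through NTC replicate 3. The ZDHHC8 log2 fold change was 0.11 ± 0.099 against controls (edgeR adjusted p = 0.769). RANBP1, a Ran-binding protein gene at 71.4 kb, was at 0.0043 ± 0.13 against controls.

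Members further away were grouped by role. Of the RNA and chromatin list, 9 of 10 genes were members and 8 were tested, and 0 changed against controls or against other GapmeRs. Their log2 fold changes against controls ran from -0.073 for ZNF74, a zinc finger gene, to 0.087 for TRMT2A, a tRNA methyltransferase gene. TBX1 had 2 to 14 counts per sample and passed the filter of no comparison. The 3 mitochondrial members ran from -0.093 for MRPL40, a mitochondrial ribosome gene, to 0.057 for TXNRD2, the mitochondrial thioredoxin reductase gene, with 0 changed.

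Of 5 members of membrane traffic and lipid signalling, 0 changed against controls. PI4KA, a phosphatidylinositol 4-kinase gene, was lowest at -0.061 ± 0.060. SCARF2, a scavenger receptor class F gene, was highest at 0.46 ± 0.20 with 18 to 65 counts per sample (95% interval 0.029 to 0.89, edgeR adjusted p = 0.433). The SCARF2 log2 fold change against other GapmeRs was 0.26 ± 0.19.

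Of 5 adaptors, receptors and adhesion genes, 0 changed, from -0.0061 ± 0.048 for CRKL to 0.13 ± 0.086 for LZTR1, which encodes an adaptor of a cullin ubiquitin ligase. KLHL22, another cullin adaptor gene, was at 0.079 ± 0.087. USP41, annotated as a pseudogene of the ubiquitin peptidase family, was at -0.40 ± 0.33 with 3 to 20 counts per sample. Reads shared between USP41 and its close relative USP18 were not counted for either, so its level is uncertain. The same holds for TMEM191A at -0.029 ± 0.24 and for DGCR6L, at -0.0027 ± 0.092, whose near-copy DGCR6 lies elsewhere on 22q11.

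Of 8 noncoding members, 7 were tested against controls and only the target changed. The other 6 ran from -0.50 for LINC00896 to -0.092 for THAP7-AS1, all on the same side of 0 but without passing the test. Against other GapmeRs the 7 neighbours among them ran from -0.33 to 0.032. ENSG00000272829, with 3 to 15 counts per sample, was tested against other GapmeRs but not against controls in the pooled comparison.

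Levels per length differed widely between members. In controls, per kb of exon, RANBP1 was highest at 43.9 ± 6.51 CPM per kb (SD, n = 5), followed by CRKL at 38.2 ± 1.52 and CDC45, a replication factor gene, at 29.1 ± 3.58. The first pair overlapped within their spread. LINC02891 was 14th of 39 at 9.32 ± 1.15 CPM per kb, close to THAP7 at 9.06 ± 0.622. LINC00896 stood at 0.649 ± 0.175 and TBX1, the lowest, at 0.0804 ± 0.0160 CPM per kb.

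Much of the spread in the neighbours followed the replicate number. Per the study's methods the replicates were run on different days, and the numbers were taken to mark these days, which the labels do not state. The replicate number accounted for a median of 28.8% of the sum of squares of log2 CPM in the 38 neighbours over 27 samples, where 7.69% would be its share without structure. The 10 groups accounted for a median of 37.0%, where 34.6% would be their share without structure. CDC45 was the clearest case, at 67.4 to 75.6 CPM in samples numbered 3 and at 87.7 to 101 CPM in the others, with 93.7% of its sum of squares following the number. RANBP1 was lower by 0.50 on the log2 scale in samples numbered 3. The numbers were not balanced between groups. Medium and lnc-NKX2-3-1 GapmeR1 had no sample numbered 3, so NTC gave the only control of that number. The tests were therefore repeated with the replicate number as a block. For lnc-RTN4R-1 GapmeRs against controls, the RANBP1 log2 fold change was 0.0043 without and 0.063 with the block.

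With the block, LINC02891 stayed the only member called against controls, beside 1.96% of all genes, and against other GapmeRs, beside 1.45%. The LINC02891 log2 fold changes were then -1.95 and -1.87.

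The next comparisons asked whether each oligonucleotide alone gave the same picture. GapmeR1 against controls changed 1 of 38 members, the target, beside 1.59% of all genes tested (1.01% higher and 0.579% lower). GapmeR2 against controls changed 1 of 37, again the target, beside 6.62% (2.76% higher and 3.85% lower). With the block, GapmeR1 changed 3 members, beside 9.39% of all genes, and GapmeR2 changed 8, beside 22.4%. In both, the share of members (7.89% and 21.6%) was close to that of all genes. Those shares pool all distances. With GapmeR2 and the block, 4 of 7 neighbours within 100 kb were higher and 0 lower. Between 100 and 500 kb 0 of 15 tested were higher and 1 lower, and beyond 500 kb 1 of 14 was higher and 1 lower. With GapmeR1 0 neighbours were higher, and 1 of 7, 1 of 15 and 0 of 15 were lower in these bins. This spread of calls by distance was not tested.

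**Figure D3:**
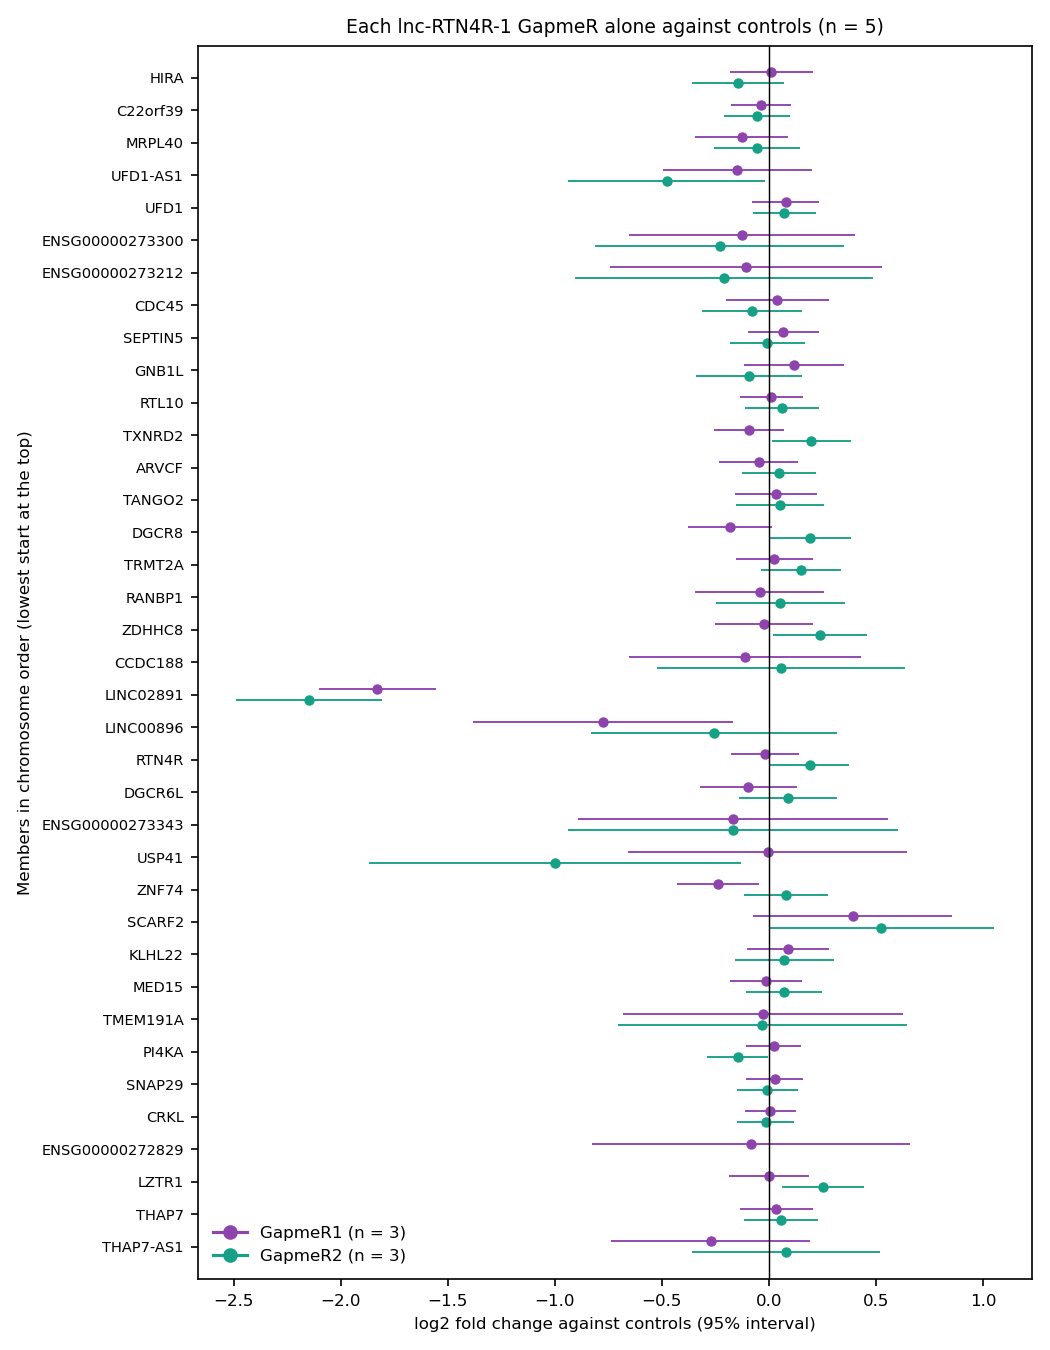
Log2 fold change against controls with its 95% interval (horizontal axis) for the members shown, in chromosome order (vertical axis), GapmeR1 in purple and GapmeR2 in green. Both oligonucleotides lowered LINC02891, and most other members lie near 0, with DGCR8 at -0.18 and 0.19 and ZNF74 at -0.24 and 0.081. The widest shifts of neighbours are LINC00896 at -0.776 with GapmeR1 and USP41 at -0.998 with GapmeR2, both at low counts.

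LINC02891 was lower with both oligonucleotides with the block, at -1.81 with GapmeR1 and -2.13 with GapmeR2. DGCR8, named here after its values were seen, lay 86.9 kb from the target. It stood at 83.5 and 97.1 CPM in medium, at 77.1, 93.1 and 79.2 CPM with NTC, at 78.1, 83.4 and 66.0 CPM with GapmeR1 and at 98.3, 109 and 89.9 CPM with GapmeR2. The groups overlapped with the controls, but within each replicate number the order was GapmeR1 under GapmeR2, by -0.33, -0.38 and -0.45 on the log2 scale. This order within each number was shared by 13 of 39 members, DGCR8 included, and 8 had the opposite order. The share of all genes with either order was not counted, so these counts are not read as a trait of the members. With the block, DGCR8 was lower with GapmeR1 than in controls (log2 fold change -0.16, edgeR adjusted p = 0.0241) and higher with GapmeR2 (0.21, edgeR adjusted p = 0.00206). Without it, DGCR8 was at -0.18 ± 0.090 and 0.19 ± 0.088, and neither passed.

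ZNF74, 189 kb from the target, stood at 34.5 and 41.6 CPM in medium, at 31.0, 38.3 and 35.7 CPM with NTC, at 29.8, 31.1 and 31.2 CPM with GapmeR1 and at 40.3, 38.7 and 36.8 CPM with GapmeR2. All GapmeR1 samples lay under all GapmeR2 samples. The share of all genes separated in this way was not counted, so the separation is not read as a trait of ZNF74. ZNF74 differed from controls by -0.24 ± 0.088 with GapmeR1 (edgeR adjusted p = 0.341 without and 0.00695 with the block) and by 0.081 ± 0.091 with GapmeR2 (edgeR adjusted p = 0.682 and 0.364).

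With the block and GapmeR2, the members TRMT2A (0.16), ZDHHC8 (0.20), RTN4R (0.18) and LZTR1 (0.24) were also higher than controls on the log2 scale, and USP41 (-1.10) and PI4KA (-0.15) were lower. The edgeR adjusted p-values of these 6 ran from 0.00399 to 0.0451, and none of the 6 passed without the block. By distance, the median log2 fold change of protein-coding neighbours with GapmeR2 against controls was 0.17 within 100 kb, 0.070 between 100 and 500 kb and -0.036 beyond, beside 0.0072 over all genes tested. With GapmeR1 it was -0.033, -0.0026 and 0.016, beside -0.0017 over all genes. These medians carry no test. Against other GapmeRs, a reference added after these results were seen, GapmeR2 changed LINC02891 and LZTR1, beside 5.53% of all genes, and GapmeR1 changed LINC02891, beside 1.2%. GapmeR2 with the block changed LINC02891, LZTR1 (0.25), ZDHHC8 (0.22), RTN4R (0.22) and TRMT2A (0.19), beside 12.6% of all genes, and GapmeR1 with the block changed LINC02891 alone, beside 2.25%.

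GapmeR1 was set directly against GapmeR2, since calls with one and not with the other do not show a difference. Without the block 1 of 37 members differed, beside 5.92% of all genes tested (3.72% higher and 2.19% lower). It was ZNF74, lower with GapmeR1 (log2 fold change -0.32 ± 0.074, edgeR adjusted p = 0.0358). With the block 10 members differed, beside 30.9% of all genes. CDC45 (0.12) and PI4KA (0.17) were higher with GapmeR1, and 8 were lower, among them DGCR8 (-0.37), ZNF74 (-0.32), TXNRD2 (-0.29), ZDHHC8 (-0.26), LZTR1 (-0.25), RTN4R (-0.20) and DGCR6L (-0.18). LINC02891, TRMT2A and USP41 did not pass with the block (edgeR adjusted p = 0.0662, 0.0889 and 0.0673). Without the block, the 7 neighbours within 100 kb ran from -0.51 to -0.092 for GapmeR1 against GapmeR2. The median of protein-coding neighbours was -0.185 within 100 kb, -0.085 between 100 and 500 kb and 0.024 beyond, beside -0.0031 over all genes. These medians carry no test. The ZNF74 call was lost without any 1 of 5 of the 6 samples, where its log2 fold change ran from -0.33 to -0.28, and it passed without GapmeR2 replicate 3, at -0.35.

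The other 6 GapmeRs, each set alone against the controls, were added after their levels were seen. For 5 of them 0 members were called in edgeR with or without the block. The share of all genes called without and with the block was 0.079% and 2.79% for lnc-TIMM21-5 GapmeR1, 0.0593% and 0.33% for its GapmeR2, and 0% and 2.72% for lnc-NKX2-3-1 GapmeR2. It was 0.718% and 4.86% for lnc-ASTN1-1 GapmeR1 and 0.013% and 0.215% for its GapmeR2. The sixth, lnc-NKX2-3-1 GapmeR1 with 2 samples, changed 8 of 38 members, beside 17.6% of all genes, and 13 with the block, beside 36.4%. This oligonucleotide, against an lncRNA outside the window, is shown because more members were called with it than with either lnc-RTN4R-1 GapmeR. It had no site with at most 2 mismatches on the transcribed strand of any member.
lnc-NKX2-3-1 GapmeR1: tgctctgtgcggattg

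**Figure D4:**
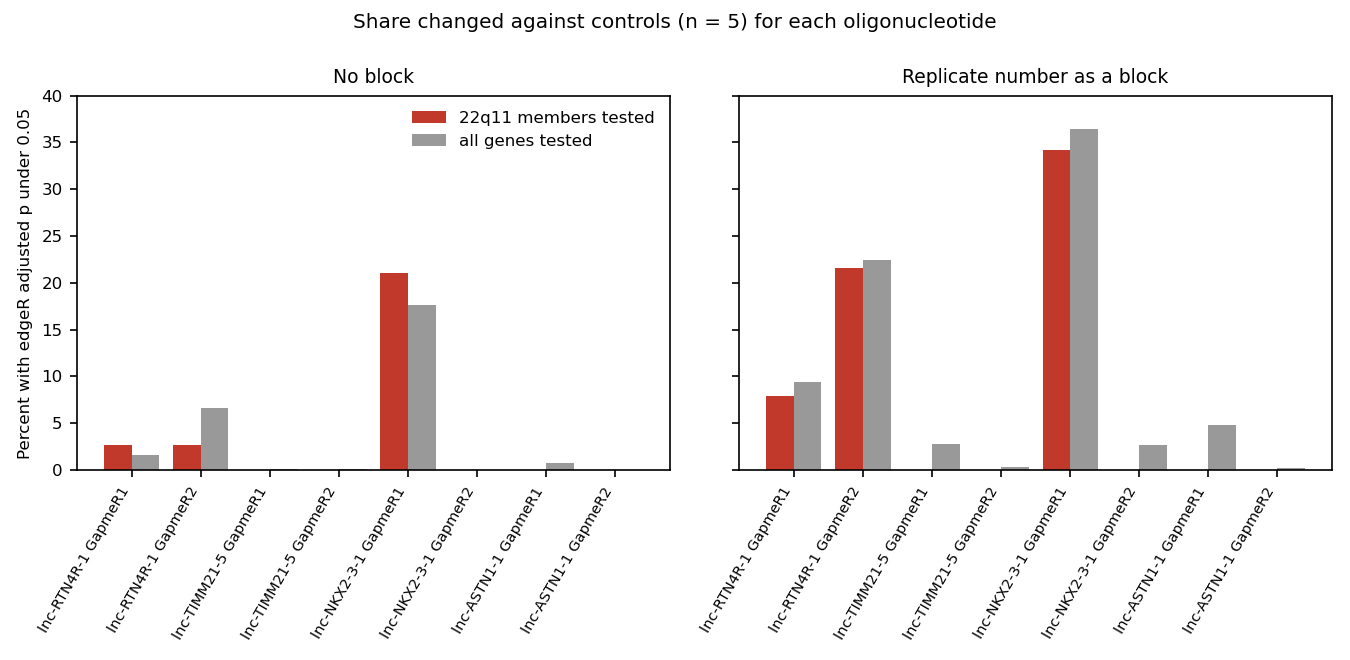
Percent of members tested (red) and of all genes tested (grey) with an edgeR adjusted p under 0.05 against the 5 controls (vertical axis, from 0) for each of 8 GapmeRs, without (left) and with (right) the replicate block. The highest pair of bars belongs to lnc-NKX2-3-1 GapmeR1, at 21.1% of members beside 17.6% of all genes without the block.

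TXNRD2 moved most among the protein-coding members. It stood at 9.90 and 9.78 CPM with lnc-NKX2-3-1 GapmeR1, under each of the 5 controls at 21.2, 19.7, 19.9, 21.2 and 20.8 CPM. The lowest of the other 20 GapmeR samples was 18.2 CPM. The TXNRD2 log2 fold change against controls was -1.08 ± 0.10 (edgeR adjusted p = 1.02e-05). The other GapmeR against the same lncRNA left TXNRD2 at 21.7, 21.0 and 22.6 CPM.

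CRKL stood at 265 and 267 CPM with lnc-NKX2-3-1 GapmeR1, above the controls at 207, 216, 196, 205 and 197 CPM, a log2 fold change of 0.37 ± 0.068 (edgeR adjusted p = 0.00237). GNB1L, KLHL22, DGCR8, THAP7 and RTL10 were also higher, by 0.50, 0.40, 0.37, 0.30 and 0.28 on the log2 scale, and ENSG00000273212, at 1 and 6 counts, was lower by a log2 fold change of -1.82. These were named after their values were seen, and their edgeR adjusted p-values ran from 0.00969 to 0.0398. LINC02891 itself, at 14.0 and 17.8 CPM, was among those called only with the block, with a log2 fold change of -0.42 (edgeR adjusted p = 0.000208). MPO stood at 163 to 197 CPM in these 2 samples, and its part in these results was not tested.

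**Figure D5:**
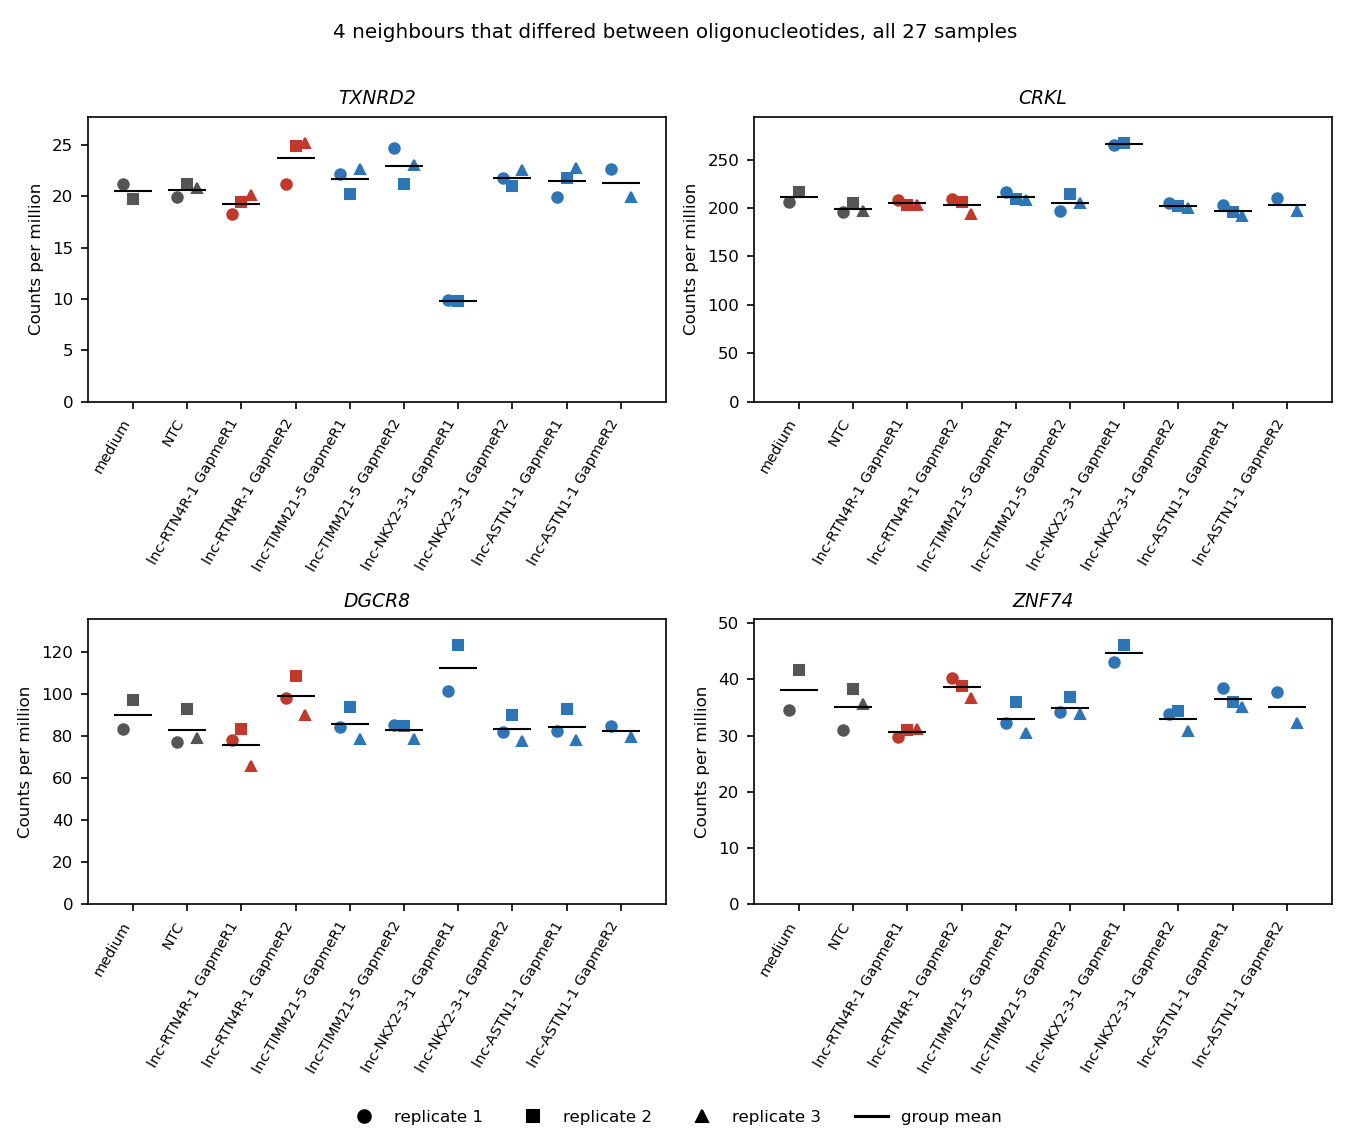
CPM (vertical axis, from 0) of TXNRD2, CRKL, DGCR8 and ZNF74 in the 27 samples by group; symbols are replicate numbers, lines group means, grey controls, red lnc-RTN4R-1 GapmeRs and blue other GapmeRs. TXNRD2 is lowest and CRKL highest with lnc-NKX2-3-1 GapmeR1. ZNF74 lies lower with lnc-RTN4R-1 GapmeR1 than with GapmeR2 in all 3 replicates, as do 13 of 39 members, ZNF74 included. The share over all genes was not counted.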

How the data were processed

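Raw counts per gene were analysed from 27 REH samples. The authors aligned reads to hg38 with STAR, and the deposited counts are uniquely mapped reads that overlap 1 gene only. The annotation release is not given in the sources used here. Of both stranded columns, the one holding 95.2% to 95.4% of stranded gene reads was used. The labels name ribodepleted stranded RNA, the methods poly-A selection, which bears on transcripts without a poly-A tail. Reads in overlapping genes of 1 strand (HIRA and C22orf39, GNB1L and RTL10) or in near-copies were not counted, so those levels are uncertain. Reads assigned to no gene were 23.0% to 28.5% of the total and stayed out of library sizes. Coordinates and types are from GENCODE 44, which matched 56434 of 60619 gene IDs. Oligonucleotide sequences come from the study's supplement.

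Genes kept by filterByExpr (count 10, total 15) plus the target were tested with robust edgeR 4.0.16 quasi-likelihood fits after TMM scaling in R 4.3.3, adjusted by Benjamini-Hochberg over all genes tested. CPM are counts scaled to a TMM-adjusted library total of 1000000. The members, lists and tests were chosen with earlier results of these data known. Named genes were the target, RTN4R, the 3 nearest neighbours on each side, members called in the 6 comparisons (up to 15 each), the highest and lowest of each role list against controls, the 3 highest and 3 lowest by level per length, and the outermost member on each side. Of these, 1 gene is counted but not reported here or drawn by name. In simulated data for the 6 comparisons, with 200 genes changed 2-fold per comparison, 88.5% to 97.5% were recovered, and 3.08% to 7.92% of the calls were false. The changed genes were drawn above a minimum mean count, and no effect of replicate number was simulated. Recovery of smaller changes or at low counts was not tested.

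Replicates were biological and run on different days. The labels' replicate numbers were taken as these days: deviations from group means correlated by 0.245 on average in 15 pairs of lnc-RTN4R-1 and control samples of 1 number (13 of 15 over 0.1) and by -0.121 in 30 pairs of different numbers. No 2 samples of a group agreed within sampling noise. Alternatives were DESeq2 1.42.0, RLE scaling, no filter, at least 10 counts in every sample, the replicate block, unstranded counts, 1 fit of all samples, NTC as the only control, and each sample left out. Intervals cover the spread between samples.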

Additional observations from a re-analysis of the deposited data

Results flagged for a closer look

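In 46 checks of a sample far from the rest of its set, 1 was found, where chance gives about 1 in 20. CDC45 stood at 67.6 CPM (1253 counts) in NTC replicate 3, while the other 4 controls stood at 90.5 to 93.4 CPM. It is the only control with replicate number 3, and CDC45 stood between 67.4 and 75.6 CPM in all samples of that number.

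ZNF74 differed between the lnc-RTN4R-1 GapmeRs by a log2 fold change of -0.316 for GapmeR1 against GapmeR2 (edgeR adjusted p = 0.0358). Within replicate numbers 1, 2 and 3 the difference was -0.43, -0.32 and -0.24, so that ZNF74 was lower with GapmeR1 in 3 of 3. Of 39 members, 13 were lower and 8 were higher with GapmeR1 in 3 of 3, and the shares over all genes were not counted. ZNF74 was picked from these same samples, so the split by number is no separate support.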

How the results depend on the processing

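The number of members called for lnc-RTN4R-1 GapmeRs against controls and against other GapmeRs was 1 under every alternative run, and that for other GapmeRs against controls was 0. Of all genes, between 11 of 15245 (NTC as the only control) and 758 of 16268 (1 fit of all samples) were called against controls. Against other GapmeRs it was 40 of 15534 to 672 of 16268, and for other GapmeRs against controls 0 of 15805 to 187 of 16268. GapmeR1 against controls gave 3 with the replicate block, beside 9.39% of all genes. GapmeR2 against controls gave 2 without a filter (LZTR1 added), beside 1389 of 29641 genes, and 8 with the replicate block, beside 22.4%. With other GapmeRs as reference, GapmeR2 gave 2 (LZTR1 added), beside 5.53%, and 5 with that reference and the block, beside 12.6%. Leaving out 1 sample from GapmeR2 against controls gave 1 to 2. ZDHHC8 was added without NTC replicate 3 (log2 fold change 0.33, edgeR adjusted p = 0.0134), beside 1490 of 14901 genes. GapmeR1 against GapmeR2 gave 2 with DESeq2, beside 1130 of 14904 genes, and 2 without a filter, beside 1493 of 28919 (DGCR8 added in both). It gave 10 with the replicate block, beside 30.9%, and 3 in 1 fit of all samples (DGCR8 and TXNRD2 added), beside 1479 of 16268. When 1 sample was left out it gave 0 to 2, beside 347 to 938 of all genes. The count was 0 without any replicate of GapmeR1 or without replicate 1 or 2 of GapmeR2. The block changed no other member count. The LINC02891 log2 fold change ran from -2.05 to -1.88 against controls and from -1.93 to -1.77 against other GapmeRs when 1 sample was left out, and the members' median against controls from -0.013 to 0.012. For single named genes, 2702 of 2745 alternative values kept their side of the threshold, with any change of sign under 1 SE, 23 passed newly, 5 no longer passed, all 5 being ZNF74, and 15 uncalled values changed sign by more than 1 SE. The cause of these shifts was not tested. Low counts limit the noncoding neighbours most.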

Other observations

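Reads on the strand opposite to LINC00896, where no gene is annotated, lie beyond the annotated start of LINC02891 and on its strand, 1.46 kb away or more. They numbered 41 to 84 per sample. Per 1000000 counts they were at 3.11 ± 0.836 with lnc-RTN4R-1 GapmeRs (SD, n = 6) and at 3.29 ± 0.654 in controls (SD, n = 5), with overlapping ranges. The mean log2 difference was -0.10 (two-sided exact permutation test, p = 0.623).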
